A study of Homo sapiens with 12 samples.

Results

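The genes described here are 9 human genes of blood clotting, fibrinolysis and protease control: the serpins SERPINA1, SERPINE2, SERPINB2 and SERPINB9, the plasminogen activator PLAU and its receptor PLAUR, the matrix protein THBS1, and the coagulation genes F3 and THBD. They were chosen by symbol from the 78932 genes of the deposited tables, and each symbol had a single row. All 9 were among the 14065 genes with enough counts to be tested. They were picked for their changes in these libraries, without a record of which contrasts counted, so their levels and changes are given as a description and not as a test.

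Messenger RNA was sequenced from THP-1, an established human monocyte-like line that began as a leukaemia culture, and 3 libraries stood for each of 4 groups. The NC group was the normal control. Cells of the LPS group were given ATP and LPS, the bacterial lipid sensed by TLR4, as a model of pyroptosis, an inflammatory form of cell death. The CE group received LPS and ATP plus the immunosuppressant cyclosporin A, which blocks calcineurin, and also eltrombopag, a thrombopoietin receptor agonist that also binds iron, and the CEL group received luspatercept, a trap for activin-like ligands, on top of all of these. LPS and ATP are thus shared by the 3 groups other than NC. No label gives a dose, a time or whether replicates were separate cultures, so a p-value here weighs a difference only against library-to-library spread, which may be technical. All values come from this 1 line.

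Serpins are protease inhibitors that offer a bait loop to a protease, and most trap it irreversibly once the loop is cut. Plasmin, the protease that dissolves fibrin, is made from plasminogen by urokinase (PLAU) or by the tissue activator PLAT, and urokinase works largely while held at the cell surface by its receptor PLAUR. Tissue factor (F3) starts clotting when monocytes or vessel wall cells expose it to blood, and thrombomodulin (THBD) turns thrombin into an activator of protein C, which slows clotting. Monocytes are known to make several of these proteins when they meet bacterial products.

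All 9 are protein-coding genes, placed here by GENCODE v29 on GRCh38. SERPINA1 lies at chr14:94376747-94390693 on the minus strand, SERPINE2 at chr2:223975112-224039319 on the minus strand, SERPINB2 at chr18:63871692-63903890 on the plus strand and SERPINB9 at chr6:2887266-2903280 on the minus strand. PLAU lies at chr10:73909177-73917497 on the plus strand and PLAUR at chr19:43646095-43670547 on the minus strand. THBS1 lies at chr15:39581079-39599466 on the plus strand, F3 at chr1:94529225-94541800 on the minus strand and THBD at chr20:23045633-23049741 on the minus strand. Counts are over whole genes, and whether the counting used strand is not given in the sources used here.

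Promoter sequence was read from RefSeq (build GRCh38.p14) for the 8 genes with an entry there, 11 entries in all, and THBD is given by name alone. The 250 bases before the start are shown for each of these 8 genes except PLAU, so that genes with alike changes can be set side by side. For SERPINA1 only the first start is shown. The stretch of SERPINA1 (the first of its 2 starts) is chr14:94390636-94390885 on the minus strand, that of SERPINB9 is chr6:2903310-2903559 on the minus strand and that of THBS1 is chr15:39580829-39581078 on the plus strand. These 3 genes were higher in LPS than in every other group. SERPINE2, highest in CEL, has entries at chr2:224031479-224031728 (start 1) and chr2:224038641-224038890 (start 2) on the minus strand. SERPINB2, highest in NC, has its stretch at chr18:63887455-63887704 on the plus strand. PLAUR, at chr19:43670170-43670419, and F3, at chr1:94541760-94542009, both on the minus strand, were highest in CE. Each sequence reads 5′ to 3′ towards the start, and capitals mark the motif matches described after it.
SERPINA1: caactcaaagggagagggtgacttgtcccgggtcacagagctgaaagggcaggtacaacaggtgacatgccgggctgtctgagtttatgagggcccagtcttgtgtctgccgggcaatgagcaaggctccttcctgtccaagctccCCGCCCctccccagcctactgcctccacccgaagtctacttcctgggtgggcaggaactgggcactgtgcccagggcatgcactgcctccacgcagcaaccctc
SERPINB9: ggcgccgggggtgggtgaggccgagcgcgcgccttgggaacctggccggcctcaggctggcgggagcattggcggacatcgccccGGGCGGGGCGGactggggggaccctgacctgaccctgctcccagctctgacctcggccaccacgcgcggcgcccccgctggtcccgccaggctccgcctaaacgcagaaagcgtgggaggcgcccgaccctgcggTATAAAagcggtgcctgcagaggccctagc
THBS1: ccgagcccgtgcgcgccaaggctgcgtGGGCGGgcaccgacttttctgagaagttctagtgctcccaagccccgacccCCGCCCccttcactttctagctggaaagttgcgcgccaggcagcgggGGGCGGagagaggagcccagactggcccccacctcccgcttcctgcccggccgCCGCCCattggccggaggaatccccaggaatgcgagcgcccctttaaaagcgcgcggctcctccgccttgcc
SERPINE2 start 1: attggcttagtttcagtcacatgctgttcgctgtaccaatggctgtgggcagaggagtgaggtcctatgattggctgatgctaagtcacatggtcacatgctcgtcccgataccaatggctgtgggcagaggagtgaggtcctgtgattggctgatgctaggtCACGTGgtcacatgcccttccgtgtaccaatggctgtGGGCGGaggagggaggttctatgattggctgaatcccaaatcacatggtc
SERPINE2 start 2: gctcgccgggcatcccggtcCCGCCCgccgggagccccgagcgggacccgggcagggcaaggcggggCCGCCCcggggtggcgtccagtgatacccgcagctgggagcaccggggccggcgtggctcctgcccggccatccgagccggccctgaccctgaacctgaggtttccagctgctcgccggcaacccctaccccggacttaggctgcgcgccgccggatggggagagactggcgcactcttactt
SERPINB2: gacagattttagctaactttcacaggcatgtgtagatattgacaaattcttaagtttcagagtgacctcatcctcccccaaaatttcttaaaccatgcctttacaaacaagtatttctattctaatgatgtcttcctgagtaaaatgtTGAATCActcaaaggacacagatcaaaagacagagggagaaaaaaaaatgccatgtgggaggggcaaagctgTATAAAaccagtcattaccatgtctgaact
PLAUR: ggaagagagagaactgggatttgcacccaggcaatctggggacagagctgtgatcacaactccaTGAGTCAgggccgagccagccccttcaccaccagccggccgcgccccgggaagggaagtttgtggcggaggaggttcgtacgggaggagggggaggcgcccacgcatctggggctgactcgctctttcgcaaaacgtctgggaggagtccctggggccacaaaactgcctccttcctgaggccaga
F3: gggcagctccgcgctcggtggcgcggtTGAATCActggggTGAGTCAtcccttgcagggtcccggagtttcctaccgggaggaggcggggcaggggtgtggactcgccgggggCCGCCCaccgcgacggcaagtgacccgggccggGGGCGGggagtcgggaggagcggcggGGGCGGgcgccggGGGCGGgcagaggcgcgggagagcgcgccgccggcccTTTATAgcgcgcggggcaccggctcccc

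A set of 5 motifs was searched on both strands in these 250 bases: the AP-1 site TGANTCA, an NF-kB site (GGG, any 2 bases, then TTTCC), the SP1 box GGGCGG, the E-box CACGTG and the TATA box TATAAA. The AP-1 site was found in SERPINB2 (starting 102 bases before the start), in PLAUR (186 bases before) and at 2 places in F3 (223 and 210 bases before), so in 3 of the 8 genes. Per promoter, it occurs in 3 of the 11 entries and in 6.59% of the 34943 RefSeq promoters of the same length. SERPINB2 and SERPINB9 each hold a TATA box 30 bases before the start, and F3 holds one 28 bases before it on the other strand, a motif found in 10.8% of promoters. SP1 boxes were found in 6 of the 8 genes, or 7 of the 11 entries, and in 42.5% of all promoters. There were 4 in THBS1, 4 in F3 and 2 in SERPINB9 that share 1 base. The E-box, in 6.32% of promoters, was found in SERPINE2 start 1, and these NF-kB letters, in 1.73% of promoters, were in none of the 11 entries. SERPINA1 at its start 1, SERPINB9 and THBS1 share the SP1 box and no other motif searched. The entry of SERPINA1 at start 2 held none of the 5 motifs. A match describes letters in this window, not a site in use.

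The 12 libraries held 17737213 to 23183429 counts each, with 21775 to 26123 genes at 1 count or more. Levels are given as CPM, the count relative to the library total after scaling with TMM factors, in the order of replicates 1, 2 and 3, and group values are means ± SD with n = 3. A change is a log2 difference ± its approximate standard error, from an edgeR quasi-likelihood fit over all 12 libraries. A gene is said to rise or fall where the Benjamini-Hochberg adjusted p over all tested genes was under 0.05; for the 9 genes this says only that the difference is large beside the spread between replicates. In RNA from whole cultures, a smaller share of cells that express a gene and less RNA in each cell cannot be told apart. The columns of CE were matched as the group left over once the names of the other groups were matched, and every CE value rests on that.

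The levels of the 9 genes by library are plotted first, and the changes follow gene by gene.

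**Figure D1:**
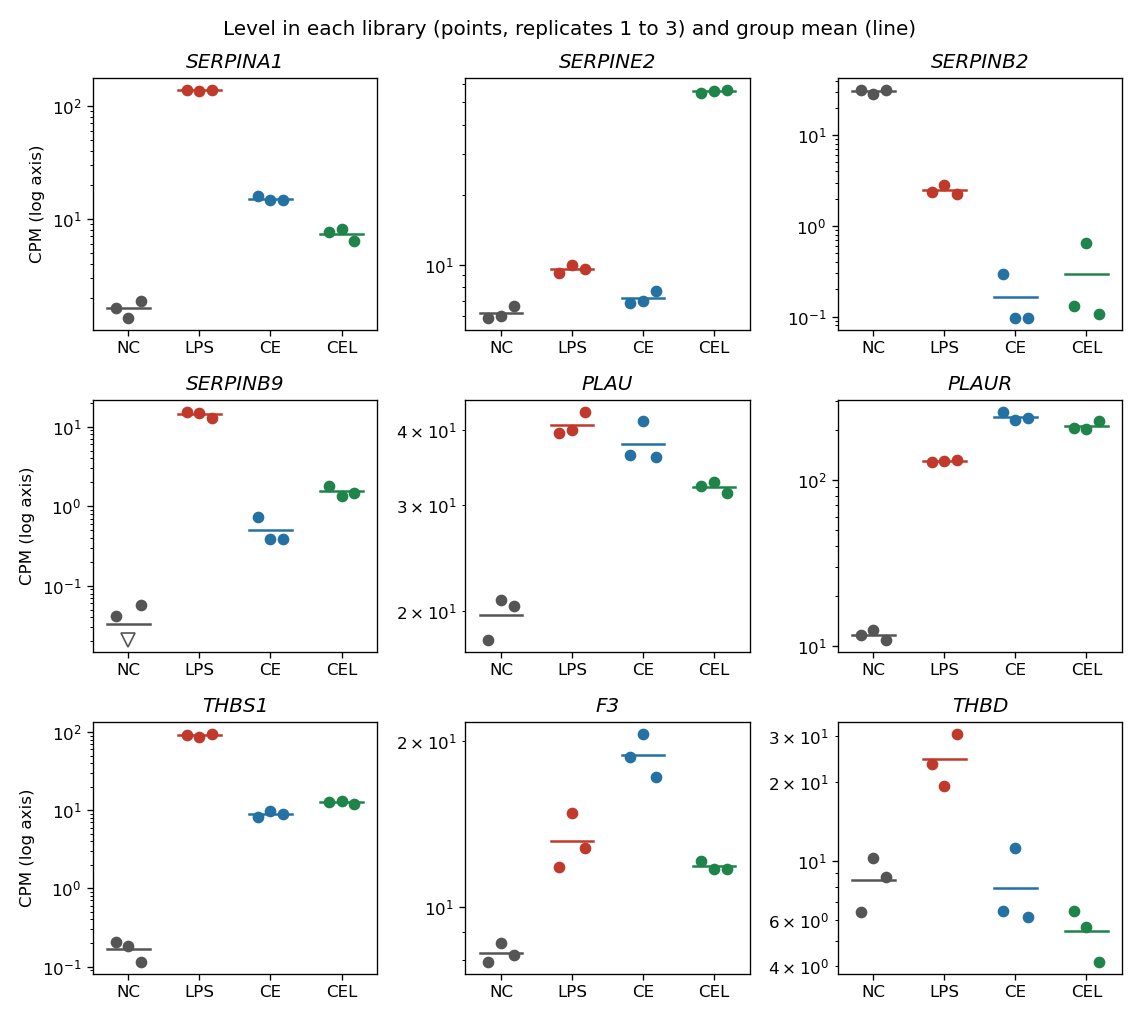
Level of each of the 9 genes in CPM (y axes, log scale, each with its own range) in the 3 libraries of each group (points, replicates 1 to 3 from left to right; the open triangle is a library with 0 counts) and the group mean (line). SERPINA1, SERPINB9, THBS1 and THBD peak in LPS, SERPINE2 in CEL, SERPINB2 in NC, and PLAUR and F3 in CE.

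SERPINA1 encodes alpha-1 antitrypsin, the main plasma inhibitor of neutrophil elastase, made by liver cells and also by monocytes. It was at 1.62, 1.32 and 1.88 CPM in NC and at 138, 134 and 137 CPM in LPS. With cyclosporin A and eltrombopag it was at 15.8, 14.7 and 14.5 CPM, and with luspatercept added at 7.57, 8.17 and 6.29 CPM. No 2 of the 4 groups overlapped, and the order was LPS, CE, CEL and NC. SERPINA1 rose 84.9-fold in LPS over NC (6.41 ± 0.13 on the log2 scale; 6.11 to 6.56 within the 3 batches) and fell 9.08-fold from LPS to CE (-3.18 ± 0.11) and 18.5-fold from LPS to CEL (-4.21 ± 0.11). It was 2.04-fold lower in CEL than in CE (-1.03 ± 0.11; -1.19 to -0.84 within batches) and still 4.58-fold higher in CEL than in NC. Defining genes of hepatocytes were near 0: the summed level of the 7 listed was 0.0888 to 0.872 CPM in any library, ALB was at most 0.199 CPM in a group, and FGB and APOH, among others, were at 0 in some groups.

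SERPINB9, the intracellular inhibitor of granzyme B, was at 0.0415, 0 and 0.0571 CPM in NC (1, 0 and 1 counts) and at 15.4, 14.9 and 12.7 CPM in LPS. The summed counts were 915 in LPS against 2 in NC, a ratio of 454 with an exact 95% counting interval of 125 to 3752. It was at 0.738, 0.385 and 0.385 CPM in CE, a 28.2-fold fall from LPS (-4.82 ± 0.3). It was at 1.82, 1.35 and 1.45 CPM in CEL, 9.25-fold below LPS (-3.21 ± 0.26). CEL lay above CE in every library, by 3.05-fold (1.61 ± 0.3; 1.2 to 1.68 within batches), the opposite direction to SERPINA1, although CE held 31 counts in all. Against NC the ratio of summed counts was 15.9 (4.05 to 137) in CE and 49.4 (13.3 to 414) in CEL. The CEL against CE difference did not pass on log2(TPM + 1) values (0.39, limma adjusted p = 0.384) or on log2(TPM + 0.1) values (1.26, adjusted p = 0.337). Nor did CE against NC (0.2, adjusted p = 0.415, and 1.25, adjusted p = 0.0889).

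SERPINB2, plasminogen activator inhibitor 2, was at 31.4, 28.2 and 31.6 CPM in NC and at 2.36, 2.84 and 2.26 CPM in LPS. It is the only member of the 9 that was lower in LPS than in NC, by 12.2-fold (-3.61 ± 0.35; -3.75 to -3.27 within batches). In CE it was at 0.295, 0.0963 and 0.0964 CPM, or 6, 2 and 2 counts, and in CEL at 0.13, 0.651 and 0.107 CPM, or 3, 13 and 2 counts. From LPS it fell 14.9-fold to CE (-3.89 ± 0.5; -4.64 without CE replicate 1) and 8.33-fold to CEL (-3.06 ± 0.45; -4.26 without CEL replicate 2). Relative to NC it was 181-fold lower in CE and 102-fold lower in CEL, which became -8.27 on the log2 scale without CE replicate 1 and -7.89 without CEL replicate 2. CE and CEL overlapped and were not told apart (0.83 ± 0.66, edgeR adjusted p = 0.403), and leaving out CEL replicate 2 turned the sign (-0.36), while leaving out CE replicate 1 gave 1.63. Within batches 1, 2 and 3 that difference was -0.79, 1.96 and 0.08. SERPINB10, a neighbouring serpin that overlaps SERPINB2 on the same strand, had 929, 114, 8 and 7 counts in NC, LPS, CE and CEL, so reads could be shared between them.

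SERPINE2, also called protease nexin 1, inhibits thrombin, urokinase and plasmin at cell surfaces. It was at 5.9, 6.03 and 6.68 CPM in NC, at 9.18, 9.98 and 9.55 CPM in LPS and at 6.84, 6.98 and 7.71 CPM in CE. In CEL it was at 55.1, 55.8 and 56.6 CPM, above every library of the other groups. SERPINE2 rose 7.77-fold from CE to CEL (2.96 ± 0.08; 2.86 to 2.99 within batches) and was 5.83-fold higher in CEL than in LPS and 9-fold higher than in NC. The changes without luspatercept were small: 1.55-fold higher in LPS than in NC (0.63 ± 0.07) and 1.33-fold lower in CE than in LPS (-0.42 ± 0.07). The second of these did not pass on TPM values (limma on log2(TPM + 1), -0.33, adjusted p = 0.169, and 0.174 and 0.362 in the other limma fits). The difference of CE from NC (0.21 ± 0.08, edgeR adjusted p = 0.0427) lost its call when any of 8 libraries was left out (each of NC, LPS 2, CE 1, CE 3, CEL 1 or CEL 2; 0.11 to 0.26 over all 12 fits) and was -0.07 with upper quartile scaling. It also did not pass with RLE factors (0.17, adjusted p = 0.121), library size alone (0.06, 0.626), no filter (0.24, 0.368), DESeq2 (0.18, 0.248) or limma on log2(TPM + 1) (0.29, 0.18).

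Urokinase, PLAU, was at 17.9, 20.9 and 20.4 CPM in NC and at 39.5, 40 and 42.8 CPM in LPS, a 2.07-fold rise (1.05 ± 0.08; 0.93 to 1.14 within batches). It stayed between 31.4 and 42.8 CPM in every library that had received LPS and ATP. CE, at 36.3, 41.4 and 36 CPM, overlapped LPS and was not told apart from it (-0.11 ± 0.08, edgeR adjusted p = 0.287), although the difference passed with upper quartile scaling (-0.28, adjusted p = 0.00844) and with library size alone (-0.26, adjusted p = 0.0484). CEL, at 32.2, 32.7 and 31.4 CPM, lay 1.27-fold below LPS (-0.34 ± 0.08), a difference that did not pass in the 3 limma fits on TPM (-0.22 in each, adjusted p = 0.389, 0.401 and 0.531). The fall from CE to CEL (-0.24 ± 0.08, edgeR adjusted p = 0.0434) did not pass when the batch number was added as a replicate block (-0.24, adjusted p = 0.0547), nor when any of 9 of the 12 libraries was left out (all but NC 1, NC 2 and LPS 3; -0.25 to -0.18 over all 12 fits). An antisense gene that overlaps PLAU, C10orf55, held 43 counts in all.

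PLAUR, the urokinase receptor, was at 11.6, 12.4 and 10.8 CPM in NC and at 128, 129 and 131 CPM in LPS, an 11.1-fold rise (3.48 ± 0.07; 3.37 to 3.59 within batches). It rose again to 257, 228 and 236 CPM in CE, 1.86-fold above LPS (0.89 ± 0.06), and was at 206, 203 and 227 CPM in CEL, 1.64-fold above LPS (0.71 ± 0.06). PLAUR was thus 20.7-fold higher in CE and 18.2-fold higher in CEL than in NC. The small fall from CE to CEL (-0.18 ± 0.06, edgeR adjusted p = 0.0497) did not pass with the batch number as a replicate block (-0.18, adjusted p = 0.0956), nor without any of 10 libraries (all but CE 2 and CEL 3; -0.23 to -0.05 over all 12 fits).

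THBS1 encodes thrombospondin 1, a secreted glycoprotein that binds CD36, CD47 and integrins and can activate latent TGF-beta. It was at 0.208, 0.183 and 0.114 CPM in NC, 11 counts in all, and at 91.1, 87.2 and 94.7 CPM in LPS, with a ratio of summed counts of 526 (exact 95% counting interval 294 to 1054). CE, at 8.27, 9.87 and 9.01 CPM, and CEL, at 12.6, 13 and 12.1 CPM, lay between NC and LPS without overlap. CEL was 7.24-fold below LPS (-2.86 ± 0.09) and 1.39-fold above CE (0.47 ± 0.08; 0.39 to 0.6 within batches). Above NC, THBS1 was 50.7-fold higher in CE and 70.3-fold higher in CEL. The ratios of summed counts were 52.3 (29 to 105) and 72.5 (40.3 to 146). The CEL against CE difference was 0.41 without a filter on low counts (adjusted p = 0.0605) and 0.22 on log2(TPM + 1) values (limma, adjusted p = 0.683), and did not pass in either. FSIP1, which overlaps THBS1 on the other strand, had 61, 26, 10 and 15 counts in NC, LPS, CE and CEL. THBS1 had 11, 5831, 560 and 775 counts in the same order, so FSIP1 lay above it in NC. Since the strand setting is not given, reads could be shared between them. AC037198.1 and AC037198.2, which also overlap THBS1, held 21 and 27 counts in all. The summed level of 6 fibroblast markers was also highest in LPS, at 65.7 to 77.6 CPM, beside 0.171 to 0.623 in NC, 3.76 to 5.61 in CE and 2.34 to 3.41 in CEL. Nearly all of it in LPS came from DCN (37.2 CPM) and LUM (35.2 CPM), while the defining collagens COL1A1, COL1A2 and COL3A1 were at 0.0473, 0.0158 and 0.0158 CPM. PDGFRB, also on that list, was at 0.14 CPM in LPS. The part of cell makeup in the THBS1 result was not tested.

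F3, tissue factor, was at 7.93, 8.59 and 8.16 CPM in NC and at 11.8, 14.8 and 12.8 CPM in LPS, a 1.6-fold rise (0.68 ± 0.1; 0.57 to 0.78 within batches). It was highest in CE, at 18.7, 20.6 and 17.2 CPM, 1.43-fold above LPS (0.52 ± 0.1) and 2.28-fold above NC (1.19 ± 0.1). In CEL it was at 12.1, 11.7 and 11.7 CPM, 1.59-fold below CE (-0.67 ± 0.1; -0.81 to -0.55 within batches). CEL overlapped LPS and was not told apart from it (-0.15 ± 0.1, edgeR adjusted p = 0.215; 0.03, -0.34 and -0.13 in batches 1, 2 and 3), and passed with upper quartile scaling (-0.29, adjusted p = 0.0223). On log2(TPM + 1) values neither the CE against LPS difference (0.43, limma adjusted p = 0.212) nor the CEL against CE difference (-0.53, adjusted p = 0.336) passed. Without the TPM filter LPS against NC (0.77, limma adjusted p = 0.105) and CEL against NC (0.67, adjusted p = 0.0859) did not pass either.

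THBD, thrombomodulin, was at 6.44, 10.3 and 8.68 CPM in NC and at 23.5, 19.4 and 30.5 CPM in LPS, 2.89-fold higher (1.53 ± 0.27; 0.91 to 1.85 within batches). It was 3.08-fold lower in CE than in LPS (-1.62 ± 0.27), at 6.45, 11.2 and 6.12 CPM, and 4.5-fold lower in CEL (-2.17 ± 0.28), at 6.49, 5.61 and 4.14 CPM. NC, CE and CEL overlapped one another. The differences CEL against CE (-0.55 ± 0.28, edgeR adjusted p = 0.192), CE against NC (-0.09 ± 0.27, adjusted p = 0.786) and CEL against NC (-0.64 ± 0.28, adjusted p = 0.0618) did not pass. The last of these passed on all 12 libraries with RLE factors (-0.64, adjusted p = 0.0406), upper quartile factors (-0.88, 0.0136), library size alone (-0.75, 0.0468), no filter (-0.68, 0.00116) and DESeq2 (-0.64, 0.0302), and when NC 1 (-0.81), CE 2 (-0.61) or CEL 1 (-0.78) was left out. THBD in CEL against CE passed without the filter (-0.59, edgeR adjusted p = 0.0253). CE replicate 2, the highest CE library for THBD, also had the highest summed level of the 9 monocyte markers in that group, 536 CPM against 372 and 364 CPM; the part of this library's makeup in the THBD values was not tested. Defining endothelial genes other than PECAM1 were low in these cultures, with CDH5 at most 0.11 CPM, VWF at most 0.272 CPM and EMCN at 0 in every group.

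F3 and THBD, which promote and restrain clotting, can be compared per transcript length as a ratio of TPM within a library. The ratio of F3 to THBD was 2.76, 1.72 and 1.79 in NC and 1.03, 1.61 and 0.996 in LPS. In CE it was 5.66, 4.18 and 5.42, and in CEL 4.13, 4.21 and 5.64. CE and CEL overlapped, and both lay above every NC and LPS library. The ratio of PLAUR to PLAU was 1.14, 1.05 and 0.918 in NC, 5.64, 5.86 and 5.5 in LPS, 10.8, 8.69 and 11.1 in CE and 11.2, 11.2 and 12.2 in CEL. It thus stepped up with LPS and again with the drugs.

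**Figure D2:**
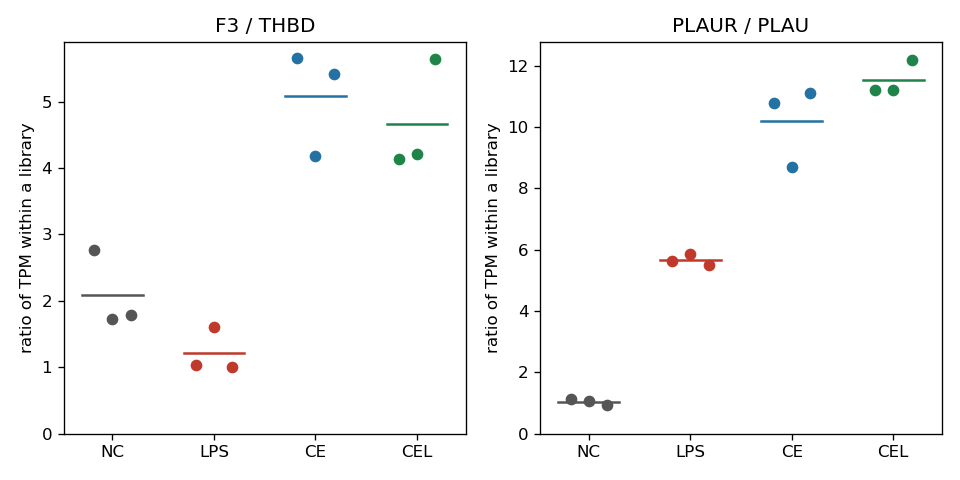
Ratio of TPM values within each library (y axes, linear from 0) for F3 to THBD (left) and PLAUR to PLAU (right), by group, with points for the 3 libraries and a line for the group mean. The F3 to THBD ratio lies at 4.13 to 5.66 in CE and CEL and at 0.996 to 2.76 in NC and LPS, and the PLAUR to PLAU ratio is lowest in NC.

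SERPINB2 and SERPINE2, which both inhibit urokinase, changed places between groups. Of their summed TPM, SERPINB2 made up 84.9% ± 0.612 in NC, 23.3% ± 1.39 in LPS, 2.54% ± 2.02 in CE and 0.627% ± 0.641 in CEL, and SERPINE2 the rest. The ratio of both serpins to the activators PLAU and PLAT, in TPM, was 2.2, 1.7 and 2 in NC, 0.301, 0.343 and 0.281 in LPS and 0.166, 0.155 and 0.202 in CE. In CEL it was 1.77, 1.74 and 1.74, inside the range of NC but with SERPINE2 in place of SERPINB2. PLAT, the tissue activator, added little: its counts were 7, 19, 51 and 18 in NC, LPS, CE and CEL. Other inhibitors of these activators are not part of the ratio. It adds up RNA of both serpins, and whether their proteins were made, or could stand in for each other, was not tested.

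**Figure D3:**
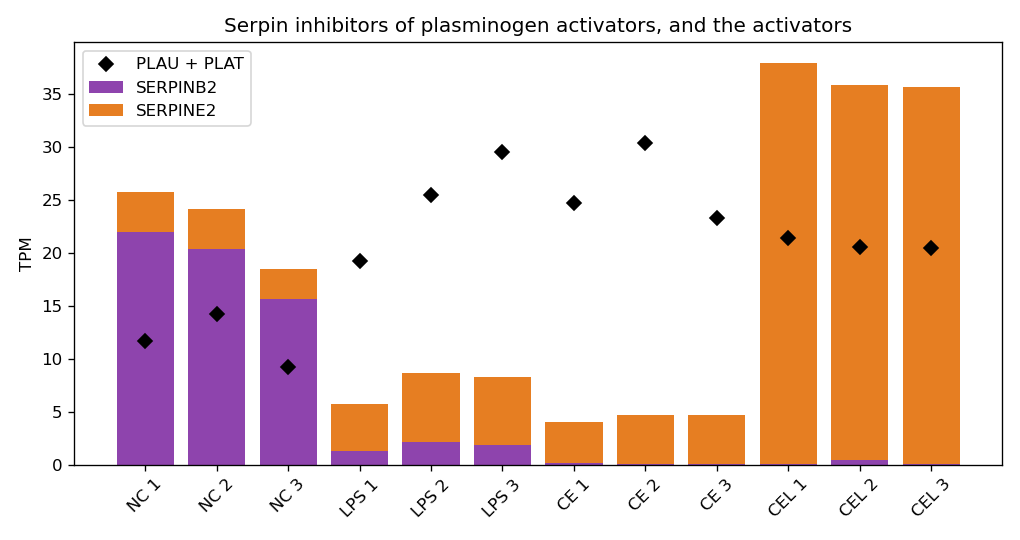
Summed TPM (y axis, linear from 0) of the serpins SERPINB2 and SERPINE2 (stacked bars) and of the activators PLAU and PLAT together (diamonds) in each of the 12 libraries (x axis). The bars are mostly SERPINB2 in NC and mostly SERPINE2 in CEL, and lie below the diamonds in the 6 LPS and CE libraries.

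Ordered by mean TPM, which allows genes of unequal length to be compared, SERPINB2 led in NC at 19.4 ± 3.29 TPM, followed by PLAUR at 12.2 ± 3.34 and PLAU at 11.7 ± 2.48, which did not differ beyond their spread. THBS1 and SERPINB9 were last, at 0.107 and 0.00667 TPM. In LPS, PLAUR (139 ± 28.2 TPM) led and was above SERPINA1 (115 ± 19.4 TPM) in each of the 3 libraries, F3 and THBD changed order between libraries, and SERPINB2 was last at 1.77 TPM. PLAUR stood first in CE at 257 ± 3.1 TPM and in CEL at 238 ± 10.5 TPM. SERPINE2 moved from the fifth place in CE (4.4 ± 0.436 TPM) to the second in CEL (36.3 ± 1.41 TPM). In CE the neighbours SERPINA1 (12.9 ± 0.621) and F3 (12.7 ± 2.94), and THBD (2.61 ± 1.08) and THBS1 (2.45 ± 0.719), changed order between libraries, and SERPINB9 (0.157 ± 0.0551) and SERPINB2 (0.11 ± 0.0781) overlapped. In CEL SERPINB9 (0.513 ± 0.102) and SERPINB2 (0.227 ± 0.229) changed order between libraries. NC replicate 3 and LPS replicate 1 had lower TPM for a given CPM than the other libraries, a median of 0.46 and 0.515 over tested genes against 0.644 to 0.751, which widens the TPM spread of those groups but leaves ratios within a library as they are.

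Set beside all tested genes, the 9 moved as follows. In LPS against NC, 8 rose and 1 fell, where 45.9% of all tested genes changed, 22.4% upwards and 23.5% downwards. In CE against LPS, 2 rose and 6 fell, beside 49.6% of all genes (28.8% up, 20.7% down). In CEL against LPS, 2 rose and 6 fell, beside 55.9% (28.7% up, 27.2% down). In CEL against CE, 3 rose and 4 fell, beside 23.6% (8.78% up, 14.8% down); 2 of these 4 falls are the ones of PLAU and PLAUR that did not last, and 5 or 6 of the 9 kept a call when any 1 library was left out. Against NC, 7 rose and 1 fell in CE, beside 64% (34.6% up, 29.4% down), and 7 rose and 1 fell in CEL, beside 67% (34% up, 33% down). The genes were picked from contrasts like these, so nothing is read from their counts. With upper quartile scaling the share of upward changes among all changed genes was 37.2% in place of 48.8% in LPS against NC, 42.4% in place of 58.2% in CE against LPS, and 38.7% in place of 54.1% in CE against NC. It was 39.7% in place of 50.7% in CEL against NC, and with library size alone it was 44.2% in CE against LPS and 47.4% in place of 37.2% in CEL against CE. The median change of the 9 was 1.53, -1.62, -2.17 and -0.18 on the log2 scale in LPS against NC, CE against LPS, CEL against LPS and CEL against CE, and that of all tested genes was -0.01, 0.08, -0.03 and -0.09. Comparisons with LPS share the LPS libraries, and those with NC share the NC libraries, so their values are not independent.

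**Figure D4:**
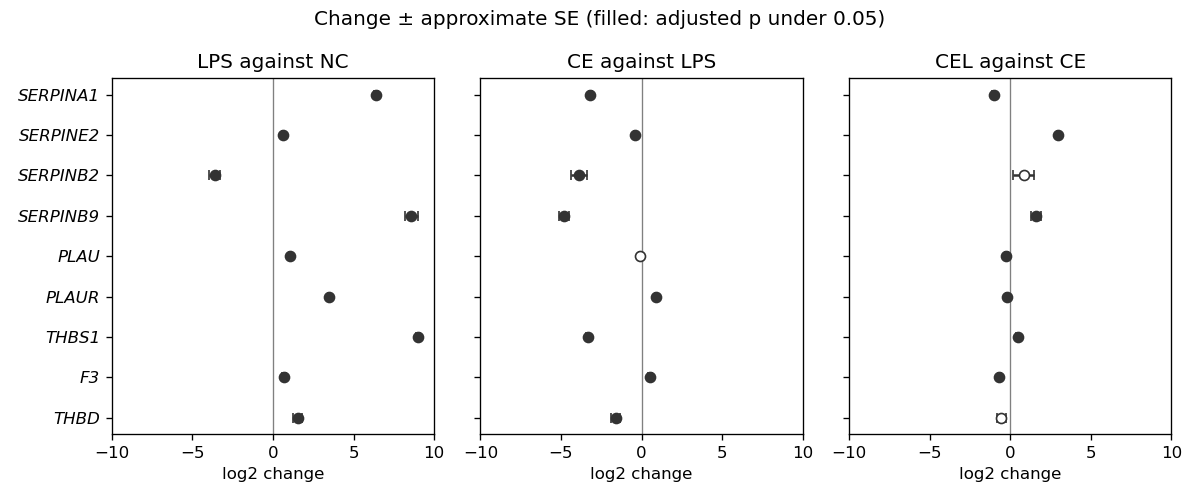
Log2 change (x axes) of the 9 genes in LPS against NC, CE against LPS and CEL against CE, with approximate standard errors as bars and filled points where the adjusted p was under 0.05. THBS1, SERPINB9 and SERPINA1 lie to the right in the left panel and to the left in the middle panel, and SERPINE2 has the largest change of the 9 in the right panel.

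In each of the 3 labelled batches, which hold 1 library of each group, the change had the same sign in 48 of the 54 pairs of a gene and a comparison. These 48 were the pairs whose groups did not overlap, and such groups give 1 sign under any pairing of libraries. The shared sign is thus no separate check. The other 6 were PLAU in CE against LPS (-0.12, 0.05 and -0.25 in batches 1, 2 and 3), THBD in CEL against CE (0.01, -0.99 and -0.55), in CE against NC (0, 0.13 and -0.5) and in CEL against NC (0.01, -0.86 and -1.05), SERPINB2 in CEL against CE and F3 in CEL against LPS, with the values given above.

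The counts of the lists that follow are to be read beside the shares of all tested genes. These were 22.4% up and 23.5% down in LPS against NC and 28.8% up and 20.7% down in CE against LPS. In CEL against CE they were 8.78% up and 14.8% down. Genes of plasminogen activation, its receptors and uptake were examined as a list of 14, of which 6 had enough counts to be tested. In LPS against NC, 3 rose, 1 fell and 2 did not pass, with a median change of 1 on the log2 scale. ANXA2, a plasminogen-binding annexin, rose 5.03-fold (2.33 ± 0.07), from 112 ± 4.78 to 561 ± 15.8 CPM. Its partner S100A10 rose 3.81-fold (1.93 ± 0.07) and the plasminogen receptor PLGRKT 1.81-fold (0.85 ± 0.07). SORL1, a sorting receptor that takes up urokinase complexes, fell 2.52-fold (-1.33 ± 0.15). In CE against LPS, 5 rose and 1 did not pass (median 0.49), with rises of S100A10 by 3.21-fold (1.68 ± 0.07), PLGRKT by 1.6-fold (0.67 ± 0.07) and SORL1 by 2.81-fold (1.49 ± 0.15). That count of 5 was 3 without CE replicate 1. In CEL against CE, 2 rose and 2 fell: S100A10 rose a further 1.65-fold (0.72 ± 0.07), to 364 ± 23.5 CPM, while PLGRKT fell 1.58-fold (-0.66 ± 0.07).

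Of 29 other serpins, 11 were tested. In LPS against NC, 6 rose, 3 fell and 2 did not pass, with a median of 1.15. SERPINI1, neuroserpin, an inhibitor of the tissue activator, rose 4.2-fold (2.07 ± 0.12), from 2.62 ± 0.0784 to 11 ± 0.837 CPM, and SERPINB1, an elastase inhibitor of leukocytes, rose 2.35-fold (1.23 ± 0.08). SERPINB7 went from 0 counts in NC to 170 in LPS, at least 56.2-fold higher when the NC libraries together are set to 3 counts. SERPIND1, heparin cofactor II, had 1 count in NC and 138 in LPS, a ratio of 137 (24.2 to 5445), and fell 8.68-fold from LPS to CE (-3.12 ± 0.37). SERPINB10 fell 8.15-fold from NC to LPS (-3.03 ± 0.23) and 13.2-fold from LPS to CE (-3.72 ± 0.32). In CE against LPS, 3 rose, 5 fell and 3 did not pass (median -0.46), with SERPINI2 3.32-fold lower (-1.73 ± 0.27). The call of SERPINB7 in that comparison (0.77 ± 0.22) was lost without LPS replicate 1 (0.67, edgeR adjusted p = 0.0593) or LPS replicate 3 (0.68, adjusted p = 0.0542). In CEL against CE 2 of the 11 passed, both lower: SERPINB1 by 1.38-fold (-0.46 ± 0.08) and SERPINB6 by a change of -0.24 ± 0.07. The call of SERPINB6 was lost with the batch as a replicate block (-0.24, edgeR adjusted p = 0.0674) and without any of 7 libraries (NC 3, LPS 1, LPS 2, CE 1, CE 3, CEL 1 or CEL 2; -0.27 to -0.11 over all 12 fits). The count of 2 was 1 without any of NC 3, LPS 1, LPS 2, CE 3, CEL 1 or CEL 2.

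Of 30 coagulation factors, inhibitors and receptors, 12 were tested, and in LPS against NC 3 rose, 6 fell and 3 did not pass (median -0.16). F13A1, the fibrin cross-linking factor XIII subunit, fell 11-fold (-3.47 ± 0.18), from 33.1 ± 1.42 to 2.98 ± 0.573 CPM, and the thrombin receptor F2R fell 4.19-fold (-2.07 ± 0.19). PROS1, protein S, a cofactor of activated protein C, fell by 0.46 on the log2 scale (SE 0.08). TFPI, the inhibitor of the tissue factor pathway, rose 2.18-fold (1.12 ± 0.2), to 3.61 ± 0.449 CPM. In CE against LPS, 6 rose, 4 fell and 2 did not pass (median 0.16). ANO6, the scramblase that exposes phosphatidylserine, rose 2.12-fold (1.09 ± 0.05), to 608 ± 21.9 CPM, and MCFD2, a carrier of clotting factors out of the endoplasmic reticulum, rose 1.81-fold (0.86 ± 0.05), while VKORC1L1, a vitamin K reductase, fell 1.3-fold (-0.38 ± 0.04). In CEL against CE, 1 rose and 4 fell. PROCR, the protein C receptor that works beside thrombomodulin, fell 1.57-fold (-0.65 ± 0.11), from 9.81 ± 1.22 to 6.25 ± 0.585 CPM. The PROCR difference did not pass in the 3 limma fits on TPM (-0.51, -0.56 and -0.51, limma adjusted p = 0.197, 0.206 and 0.349). That count of 5 went down to 2 without NC 3, CE 3 or CEL 1, to 3 without LPS 2 or CEL 2, and up to 7 without CE 2.

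Of 14 thrombospondins and their receptors beside THBS1, 10 were tested. In LPS against NC, 6 rose, 1 fell and 3 did not pass (median 0.49), and in CE against LPS 4 rose, 3 fell and 3 did not pass (median 0.04). SDC4, a heparan sulfate co-receptor, rose 4.26-fold with LPS (2.09 ± 0.08) and CD36, the scavenger receptor for thrombospondin, rose 3.21-fold (1.68 ± 0.08). The laminin receptor subunit ITGA6 rose 3.35-fold (1.74 ± 0.13). CD36 fell 2.41-fold from LPS to CE (-1.27 ± 0.08), while CD47, the other main receptor, rose 1.59-fold (0.67 ± 0.05) and ITGAV 1.92-fold (0.94 ± 0.08). THBS4 fell at each step, where THBS1 did not: it was at 19.9 ± 2.1 CPM in NC, 3.37 ± 0.207 in LPS, 1.12 ± 0.0616 in CE and 0.269 ± 0.0964 in CEL. Its folds were 5.89 (-2.56 ± 0.16), 3.01 (-1.59 ± 0.17) and 4.01 (-2 ± 0.22). In CEL against CE 3 of the 10 passed, each lower, a count that was 1 without any of NC 3, LPS 2, CE 1, CE 3, CEL 1 or CEL 2; among them ITGA4 (-0.24 ± 0.05) lost its call without each of those 6 libraries.

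Of 13 genes listed as proteases that serpins inhibit, 5 were tested. In LPS against NC, 1 rose and 4 fell (median -2.28). The falls include AZU1, which is akin to these proteases and is not taken here as a target of serpins. Cathepsin G, CTSG, fell by the largest factor of the 5, 18.3-fold (-4.19 ± 0.09), from 510 ± 26.1 to 27.9 ± 0.378 CPM. The granule proteases PRTN3, proteinase 3, and ELANE, neutrophil elastase, fell 10.3-fold (-3.36 ± 0.44) and 4.87-fold (-2.28 ± 0.37), while the lysosomal protease CTSL rose 2.78-fold (1.47 ± 0.06). In CE against LPS, 1 rose, 3 fell and 1 did not pass. The one that rose was CTSG, named for that comparison after its values were seen (0.23 ± 0.09, edgeR adjusted p = 0.0477), and its call was lost with the replicate block (0.23, adjusted p = 0.0713), without any of 11 of the 12 libraries (all but CE 2; 0.09 to 0.33 over all 12 fits) and under every other alternative. The falls of ELANE (-1.34 ± 0.39) and PRTN3 (-1.69 ± 0.5) in that comparison were lost without LPS replicate 3 (-1.2 and -1.15, edgeR adjusted p = 0.0537 and 0.0837) and were -2.16 and -2.46 without CE replicate 2. The count of 4 was 1 without LPS replicate 3. In CEL against CE, CTSL was 1.41-fold higher (0.49 ± 0.06), and the other 4 did not pass. ELANE, the main target of SERPINA1, stood at 17.8 ± 1.98 CPM in NC, 3.64 ± 0.562 in LPS, 1.43 ± 1.1 in CE and 1.31 ± 0.242 in CEL.

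**Figure D5:**
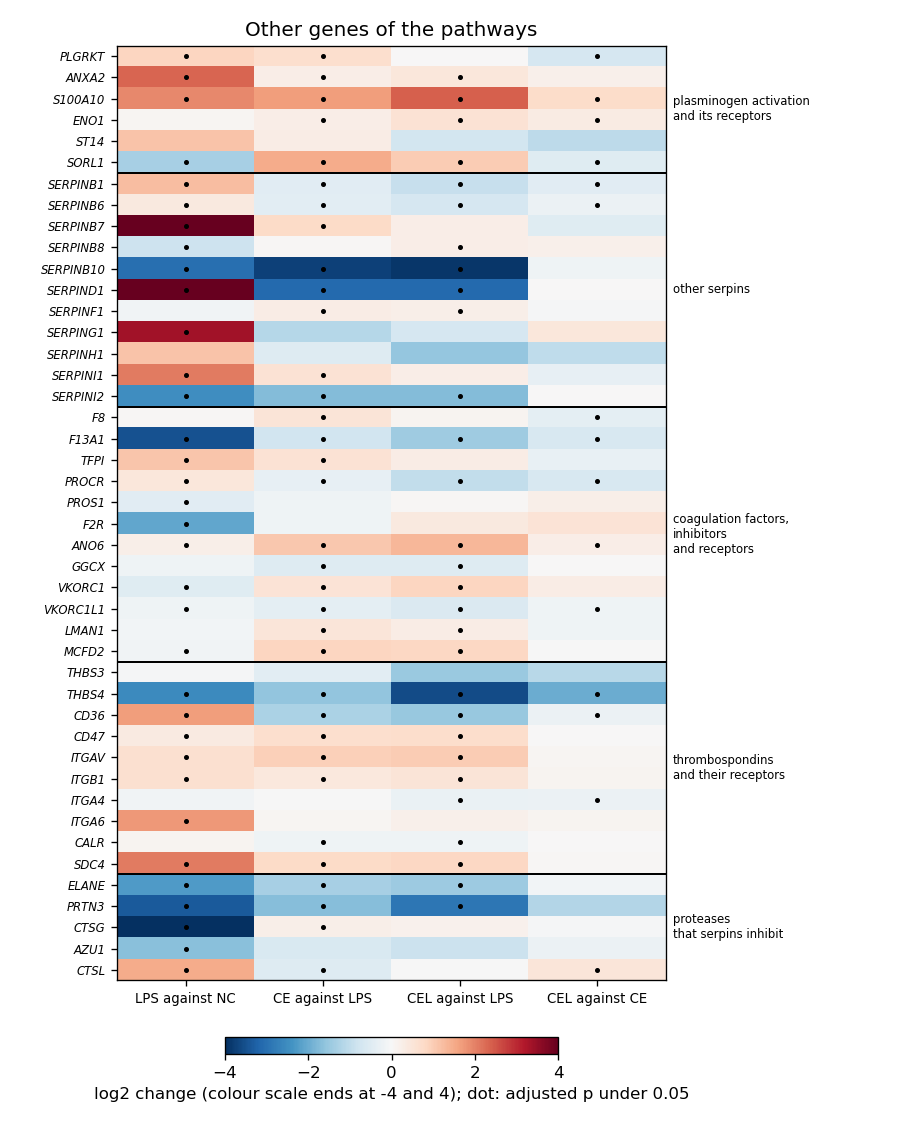
Log2 change (colour, ending at -4 and 4) of the 44 tested genes of the 5 lists (rows) in 4 comparisons (columns), with a dot where the adjusted p was under 0.05. SERPINB10 and THBS4 are blue in LPS against NC, CE against LPS and CEL against LPS, and S100A10 is red in each of the 4 columns.

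The 5 lists hold 100 genes, and the 56 that were not tested had at most 95 counts over the 12 libraries, a total reached by PLAT. In CEL against LPS, 28.7% of all tested genes rose and 27.2% fell. Beside that, 4 of 6 genes of the plasminogen list and 2 of 11 other serpins rose, and 5 of the 11 serpins fell. Of 12 coagulation genes, 4 rose and 4 fell, and of 10 thrombospondins and receptors, 4 rose and 4 fell. Of the 5 genes of the protease list, 2 passed, both lower, and 4 without CE replicate 2.

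For each of the 9 genes the 2 most alike profiles were sought among 7334 other genes whose log2 CPM averaged 3 or more, by the root mean square (RMS) difference of centred log2 CPM over the 12 libraries, which share the same 4 groups. PLAUR was closest to AMPD3, AMP deaminase 3, at an RMS difference of 0.17, and to ALOX5AP, the activator of leukotriene synthesis, at 0.21, beside an RMS of 1.77 for PLAUR itself. AMPD3 was at 11.1, 102, 192 and 165 CPM in NC, LPS, CE and CEL. PLAU was closest to GOLIM4 and CAMK2D (0.09 each, beside 0.41), and F3 to BICD1 (0.12) and LAT2 (0.14, beside 0.43). THBS1 lay nearest the chemokine CCL4 (0.57) and the protease ADAMDEC1 (0.63), beside 3.05 for THBS1 itself, and CCL4 stood at 0.254, 113, 28.2 and 25.1 CPM. THBD was closest to TIMP3 (0.28) and TIFAB (0.31, beside 0.86). In CE replicate 2, the highest CE library for THBD, TIMP3 was at 59.7 CPM against 18.6 and 23.9 in CE replicates 1 and 3. TIFAB was at 62.9 CPM there against 22.6 and 27.2, so the closeness covers that library as well as the group course.

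For the 4 serpins the RMS of the gene itself is given in parentheses after its name. SERPINA1 (2.29) was nearest CLEC5A (0.78) and CXCL1 (0.87), and SERPINB2 (2.84) nearest BEX1 (0.9) and LYZ (1.05). SERPINE2 (1.27) was nearest GADD45B (0.57), at 13.5, 11.8, 11.4 and 41.5 CPM, and the decoy receptor TNFRSF10D (0.58), at 8.51, 7.48, 13 and 37.6 CPM, both also highest in CEL. SERPINB9 (2.5) was nearest the interferon-induced MX1 (0.94), at 2.67, 266, 23.1 and 149 CPM, and CD93 (1.14), at 0.938, 55.7, 3.7 and 38.7 CPM. In MX1 and CD93, as in SERPINB9, CEL lay above CE.

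The labelled cell type was checked against its markers. All 9 listed monocyte markers had counts in every group, with a summed level of 821 to 856 CPM in NC, 651 to 686 in LPS, 364 to 536 in CE and 345 to 378 in CEL, although MPO was at most 0.521 CPM in a group. From NC to LPS the fall of that sum came mostly from LYZ, at 595, 142, 27.7 and 20.3 CPM in NC, LPS, CE and CEL. From LPS to CE both LYZ and FCGR1A (99.3, 195, 36.7 and 22.6 CPM in the same order) fell. CSF1R (7.26, 46.5, 67.4 and 44.4 CPM) and CD68 (69.5, 155, 174 and 181 CPM) were lowest in NC. CD14 was at 0.872, 44, 6.44 and 2.7 CPM in NC, LPS, CE and CEL, in the same order of groups as SERPINA1. Platelet and megakaryocyte markers summed to 0.502 to 2.2 CPM. The endothelial list summed to 209 to 599 CPM over the libraries, almost all of it PECAM1, which monocytes also express. The part of cell makeup in the changes of the 9 genes was not tested.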

How the data were processed

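RNA of 12 THP-1 libraries, 3 in each of 4 groups, was analysed from tables deposited by the authors. The deposited estimated counts cover 78932 genes and are unscaled, and 29.3% of nonzero values were not whole within 0.005, so they were rounded. The deposited TPM values, scaled by the authors for gene length and to 1 total per library, served for levels between genes, and a deposited FPKM table was not used. Per the submitters' processing notes the build was hg38. Which aligner, counter, annotation and strand setting were used is not given in the sources used here. Poly(A) RNA was selected with oligo-dT beads, per the labels' protocols. Columns were matched to groups by name: NC directly, the pyroptosis columns to LPS, those named for luspatercept treatment to CEL and the remaining treatment columns to CE. No column was left unused (0).

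Genes were filtered with filterByExpr, scaled by TMM and tested with edgeR 4.0.16 (R 4.3.3; quasi-likelihood F-test, two-sided, Benjamini-Hochberg threshold 0.05; biological coefficient of variation 20.13%) in 1 fit over the 4 groups, after a test on simulated data. The standard error is the change divided by the root of F. Ratios of low counts have exact 95% intervals that cover counting error only. The number behind a batch label equals the replicate number, so batches pair libraries by label. Over 7460 genes, 6 of 18 same-numbered pairs had deviations correlated above 0.1 (lowest -0.86, highest 0.73, median -0.186), and its own number was the best match for 1 library. Alternatives were RLE, upper quartile and no scaling factors, no filter, DESeq2 1.42.0, limma 3.58.1 on log2(TPM + 1) or log2(TPM + 0.1), the replicate block and 12 fits without 1 library each.

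The members and lists were chosen with earlier results of these data known. Listed genes were named by smallest p: up to 4 per list in LPS against NC, 3 in CE against LPS and 2 in CEL against CE. Promoters were the 250 bases before each RefSeq start. A gene of the serpin list is not reported here and was left out of its counts.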

Additional observations from a re-analysis of the deposited data

How the results depend on the processing

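Of the values of the 9 genes under the alternatives, 1036 kept direction and call, 76 lost the call, 12 gained it and 10 changed sign; of those of the other named genes, 955 kept both and 89 lost the call. The sign changes were those of PLAU in CE against LPS (0.07 in each of the 3 limma fits on TPM), SERPINB2 in CEL against CE (-0.36 without CEL replicate 2), SERPINE2 in CE against NC (-0.07 with upper quartile scaling) and THBD in CE against NC (0.05, 0.06 and 0.05 in the limma fits, 0.07 without NC replicate 2 and 0.01 without CE replicate 3). The sign was kept by SERPINB2 in CEL against CE without CE replicate 1 (1.63) and by THBD in CE against NC without CE replicate 2 (-0.4). On log2(TPM + 1), log2(TPM + 0.1) and log2(TPM + 1) without a filter, limma called 2439, 2445 and 2346 genes in LPS against NC in place of 6458, 3190, 3136 and 2528 in CE against LPS in place of 6972, and 4451, 4397 and 4212 in CEL against LPS in place of 7867. It called 224, 206 and 179 in CEL against CE in place of 3321, 5358, 5373 and 5429 in CE against NC in place of 9008, and 6172 and 6202 in the first 2 fits of CEL against NC in place of 9425. The cause was not tested. Of the 9 genes, limma called 2, 2 and 2 in CEL against CE in place of 7. Of the other named genes, PROS1 in LPS against NC lost its call in all 3 limma fits. SERPINB7, VKORC1L1 and CTSG did so in CE against LPS. In CEL against CE, PLGRKT, SERPINB1, SERPINB6, PROCR, ANO6, ITGA4 and CTSL did so, and further calls were lost in only some of these fits. Leaving out 1 library gave 2120 (without CEL replicate 2) to 4066 (without CE replicate 2) genes in CEL against CE, and 2165 without CEL replicate 1. With the replicate block, 5992, 6558, 7537, 2803, 8644 and 9185 genes were called in LPS against NC, CE against LPS, CEL against LPS, CEL against CE, CE against NC and CEL against NC, and no named call changed other than those of PLAU, PLAUR and SERPINB6 in CEL against CE and CTSG in CE against LPS. Upper quartile scaling moved the median change of all genes by -0.111, -0.174, -0.135, -0.285 and -0.245 in LPS against NC, CE against LPS, CEL against LPS, CE against NC and CEL against NC, and library size alone by -0.153, -0.112, -0.159 and -0.117 in the last 4. Depth limits SERPINB2 in CE and CEL and SERPINB9 and THBS1 in NC, whose changes rest on few counts.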

Other observations

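SERPINB2 lies in a row of clade B serpin genes on chromosome 18, and its neighbours were looked at after their values were seen. SERPINB10, next to it on the same strand and overlapping it, fell along the same course, from 14.6 ± 0.828 CPM in NC to 1.78 ± 0.157 in LPS and 0.129 ± 0.0739 in CE (n = 3 each). SERPINB7, on the other side of SERPINB2, had 0 counts in NC and was at 2.66 ± 0.688 CPM in LPS, 4.54 ± 0.0252 in CE and 3.21 ± 0.537 in CEL. SERPINB8, beyond SERPINB10, was the most abundant by CPM, at 189 ± 9.09 CPM in NC, 106 ± 9.17 in LPS, 111 ± 7.71 in CE and 128 ± 7.9 in CEL. SERPINB5, SERPINB12, SERPINB13, SERPINB4, SERPINB11 and SERPINB3 had at most 8 counts in any group.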
